A study of Mus musculus with 2 samples.

Results

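Collagens, laminins and the proteins that tie them into basement membranes were followed in CD45-negative cells sorted from Py8119 mammary tumours. The members were every listed gene whose symbol names a collagen chain or a laminin chain, together with Nid1, Nid2, Hspg2, Agrn and Fn1. This gave 41 of the 12707 genes in the table: 9 fibrillar collagens, 4 type VI chains, 5 type IV chains, 8 laminin chains and 15 others. Nid2 was not among the listed genes, and neither were other family names such as Col11a1, Col14a1, Col15a1, Lama1 and Lama2, so these were not analysed here.

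Py8119 is a mouse mammary tumour line with a mesenchymal character. After injection of these cells, tumours were taken from mice with Mtdh knocked out (KO) and from mice with wild-type Mtdh (WT). The tumour cells were labelled wild type for Mtdh in both cases, so that the host differed in genotype and the tumour cells did not. Single-cell suspensions were cleared of erythrocytes and sorted for viable cells lacking CD45, a leukocyte marker, so that tumour cells and any non-leukocyte stroma were kept. Each host genotype gave 1 library, named KO host library and WT host library below. The number of animals or tumours behind a library, and how Mtdh was knocked out, are not given in the sources that were used. With no replicate, a difference is one between 2 libraries and was not tested.

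Collagens are built from chains that wind into a triple helix. Fibrillar collagens (types I, II, III, V and others) assemble into the fibres of connective tissue, and type VI collagen forms beaded filaments around cells. Type IV collagen and the laminins form the separate networks of the basement membrane, the sheet beneath epithelia and around vessels, and nidogen and perlecan bridge them. In tumours the fibrillar collagens are known mostly as products of fibroblasts, and mesenchymal tumour cells can also make them.

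Read numbers were recovered from the deposited values, giving 23381854 reads in the KO host library and 26069381 in the WT host library. Levels are given as recovered reads and as RPM, reads per 1000000 recovered reads, and intervals cover counting error only. Mtdh itself was at 989 RPM in the KO host library and 1089 RPM in the WT host library, and since the tumour cells carry the gene this says little about the host labels. Mitochondrially encoded genes took 1.88% of the reads in the KO host library and 2.08% in the WT host library.

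Several collagens that form fibres and the main type VI chains were lower in the KO host library by 2-fold or more. The basement membrane members that were counted differed by less. Of the 41 members, 32 had 100 reads or more over both libraries and a value above 0 in each. Of these 32, 6 were lower in the KO host library by 2-fold or more, namely Col1a1, Col3a1, Col5a2, Col6a1, Col6a2 and Col6a3. Among all 10652 genes counted in the same way, 11.3% were lower by as much. Only Col2a1 was higher by 2-fold or more, against 8.4% of all genes, and 25 members lay between. With 500 reads or more over both libraries, 5 of 27 members were 2-fold lower and 0 were 2-fold higher. Among the 8239 genes with as many reads, 6.61% were 2-fold lower and 4.44% were 2-fold higher. In direction, 26 of the 32 were below 0 on the log2 scale, against 54.4% of all genes. Their median log2 read ratio was -0.36, and the median of all genes was -0.06 with quartiles at -0.47 and 0.32. Fewer cells of a type and less RNA per cell cannot be told apart in bulk libraries, here or for any value below.

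**Figure D1:**
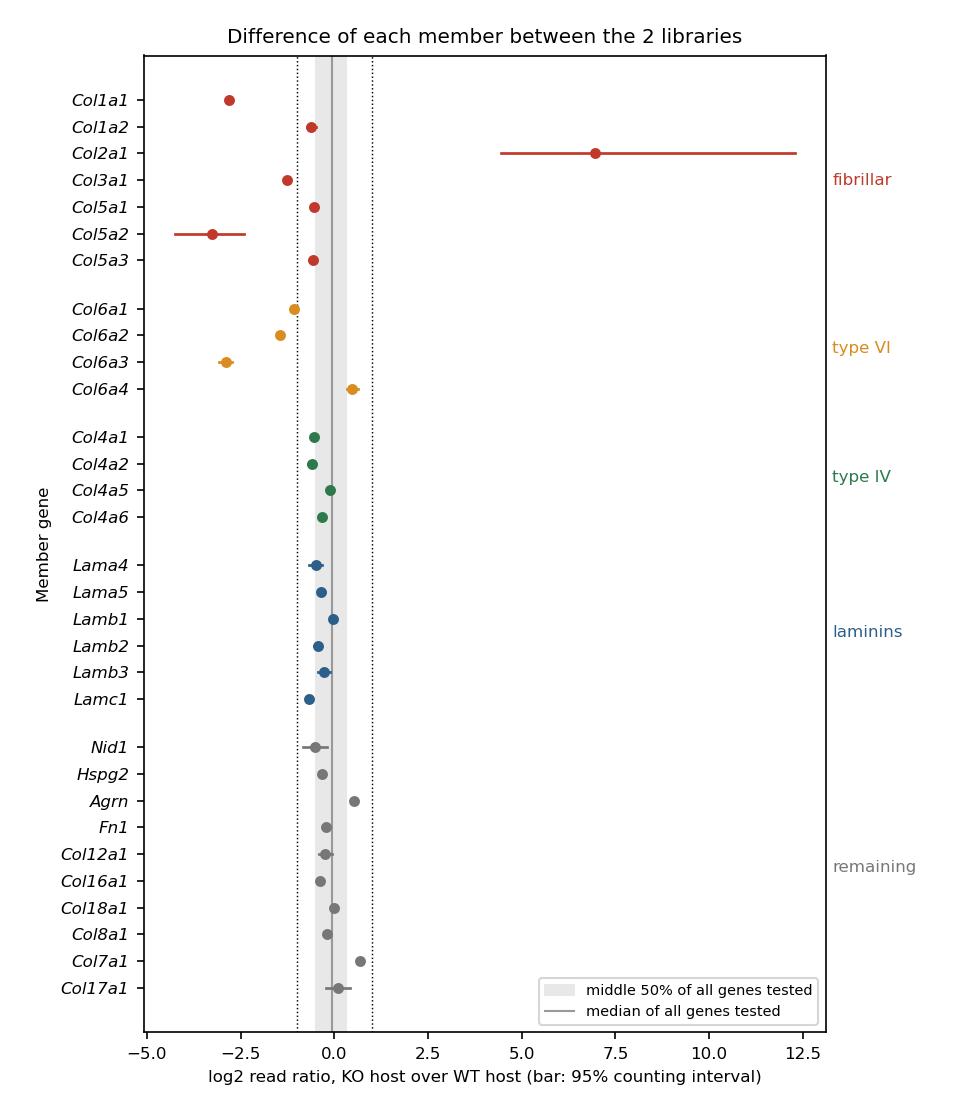
Log2 read ratio of the KO host library over the WT host library for the members counted and reported by name, by group, with 95% counting intervals as bars. The dotted lines mark 2-fold, and the grey band holds the middle of all genes tested, from -0.47 to 0.32. All 6 members left of the lower line are fibrillar or type VI collagens, and Col2a1 at 6.96 rests on 112 reads and 1 read.

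By summed reads, the 9 fibrillar chains together took 990 RPM in the KO host library and 2378 RPM in the WT host library. The 4 type VI chains took 1011 RPM in the KO host library and 2334 RPM in the WT host library. The 5 type IV chains summed to 1474 RPM in the KO host library and 1813 RPM in the WT host library, and the 8 laminin chains to 1211 and 1444 RPM in the KO and WT host libraries. The fibrillar sum was thus at 0.416 of its level in the WT host library (95% counting interval 0.410 to 0.423) and the type VI sum at 0.433 (0.427 to 0.440). Col1a1 and Col3a1 carried most of the difference in the fibrillar sum, and the median log2 read ratio of the 7 fibrillar chains counted was -0.62. The type IV sum was at 0.813 (0.802 to 0.825) and the laminin sum at 0.839 (0.826 to 0.852). Fibrillar and type VI chains made up 14.1% of all member reads in the KO host library, against 25.6% in the WT host library. All members together were at 1.42% of the KO host library and 1.84% of the WT host library.

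Among the fibrillar chains, the type I alpha 1 chain had the largest difference of those with many reads. Col1a1 (ENSMUSG00000001506, listed on chromosome 11 from 94827050 to 94843869, build mm39) had 2059 reads in the KO host library, against 16111 reads in the WT host library. It was 7.02-fold lower (95% counting interval 6.70 to 7.35). Its deposited log2(FPKM + 1) values, with FPKM meaning fragments per kilobase of gene per 1000000 counted, differed by -2.60. Of all genes counted, 1.97% had a lower read ratio than Col1a1.

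Col1a2, which encodes the alpha 2 chain that joins Col1a1 products in the type I trimer, differed far less. It had 893 reads in the KO host library and 1526 reads in the WT host library, 1.53-fold lower (1.41 to 1.67). The usual type I trimer holds more alpha 1 than alpha 2 chains. Per kilobase of the longest protein-coding transcript, Col1a1 was at 2.08 times the level of Col1a2 in the KO host library (1.92 to 2.25) and at 9.52 times in the WT host library (9.03 to 10.04).

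Col3a1 (ENSMUSG00000026043), the single chain of type III collagen, which mixes with type I in soft tissue fibres, was the most abundant fibrillar chain in both libraries. It had 11076 reads in the KO host library and 29627 in the WT host library, 2.40-fold lower (2.35 to 2.45). Per kilobase of transcript Col3a1 was at 5.73 times Col1a1 in the KO host library, against 1.96 times in the WT host library. The balance among the main fibrillar chains therefore differed between the libraries as well as their sum.

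Type V chains enter type I fibrils and limit their width. Col5a1 had 7381 reads in the KO host library and 11881 in the WT host library, 1.44-fold lower (1.40 to 1.49). Col5a3 had 1609 and 2670 reads in the KO and WT host libraries, 1.49-fold lower (1.40 to 1.58). Both stood close to Col1a2 in size of difference and short of 2-fold. Col5a2 was scarce, with 12 reads in the KO host library and 128 in the WT host library, 9.57-fold lower (5.29 to 19.0).

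Col2a1, the chain of cartilage collagen, went the other way, with 112 reads in the KO host library and 1 read in the WT host library. The ratio was 125, and its log2 of 6.96 had a counting interval from 4.46 to 12.3. Low genes often showed such splits in these libraries. Of the 1599 genes with 100 to 300 reads over both, 18.2% had 5 reads or fewer in 1 library, and 55.7% of those with a value above 0 in each differed by 2-fold or more. Col5a2 and Col2a1 both belong to that range. The remaining fibrillar chains were below the read minimum, with Col27a1 at 13 and 26 reads in the KO and WT host libraries and Col24a1 listed at 0 in the first and at 30 reads in the second.

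**Figure D2:**
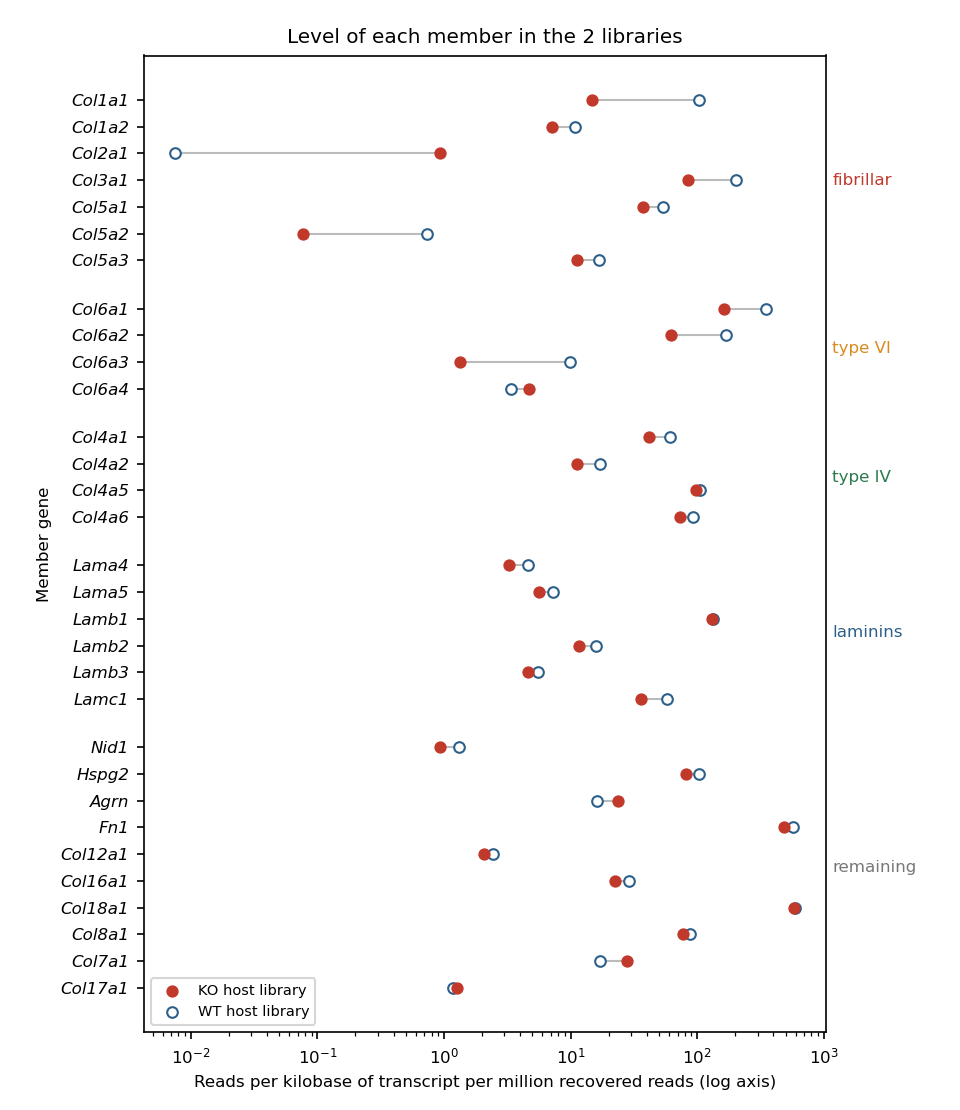
Level of each counted member reported by name in RPM per kilobase of the longest protein-coding transcript, on a log axis, with the KO host library filled and the WT host library open. Col18a1 and Fn1 are at the high end in both libraries, and Col1a1 sits at 14.8 in the KO host library against 104 in the WT host library.

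Type VI collagen forms from alpha 1, alpha 2 and alpha 3 chains in equal parts, and all 3 of these genes were lower in the KO host library by 2-fold or more. Col6a1 (ENSMUSG00000001119, chromosome 10, 76544626 to 76562003) had 15766 reads in the KO host library and 37218 in the WT host library, 2.12-fold lower (2.08 to 2.16). Its neighbour Col6a2, on the same strand 85161 bases away, had 6747 and 20373 reads in the KO and WT host libraries. It was 2.71-fold lower (2.63 to 2.78).

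Col6a3 (ENSMUSG00000048126, chromosome 1), the largest of these chains, was 7.41-fold lower (6.59 to 8.36). It had 315 reads in the KO host library against 2604 reads in the WT host library. On the deposited log2(FPKM + 1) scale this was a difference of -0.96, since a span of 78049 bases put its FPKM at 0.173 in the KO host library and 1.28 in the WT host library. Per kilobase of transcript Col6a2 was at 46.5 times Col6a3 in the KO host library (41.5 to 52.3) and at 17.0 times in the WT host library (16.3 to 17.7). The chains thus did not keep 1 ratio between the libraries.

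Col6a4, which encodes an alternative to the alpha 3 chain, was on the other side of 0. It had 813 reads in the KO host library and 648 in the WT host library, a log2 read ratio of 0.48 (0.33 to 0.64). The median log2 read ratio over the 4 chains was -1.26.

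**Figure D3:**
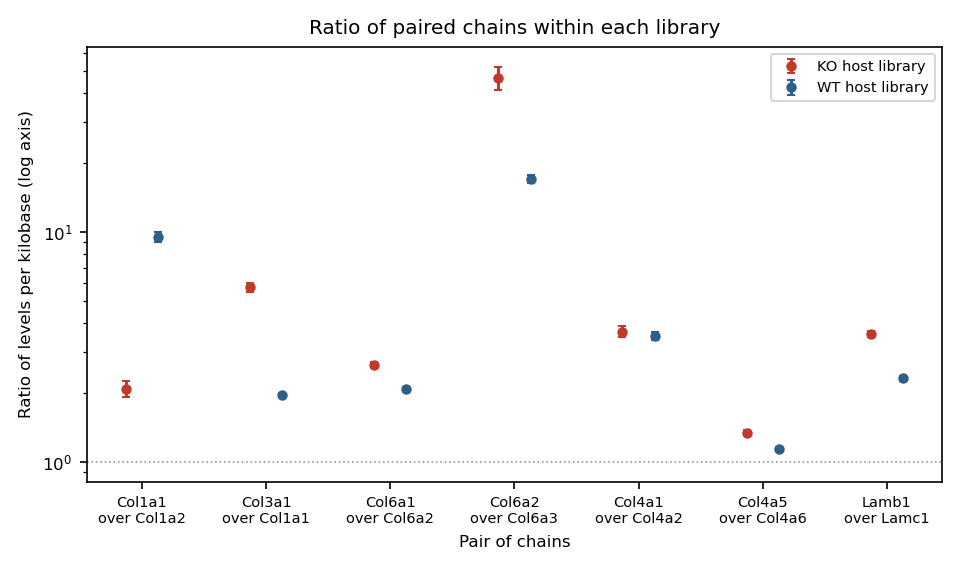
Ratio of the levels of paired chains per kilobase of transcript within each library, on a log axis, with 95% counting intervals. The ratio of Col1a1 to Col1a2 is 2.08 in the KO host library and 9.52 in the WT host library, while that of Col4a1 to Col4a2 is 3.68 and 3.52.

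The 250 bases before the RefSeq transcription start (GRCm38.p6) are shown for the 4 genes past 2-fold that have an entry in the promoter table, Col3a1, Col6a1, Col6a2 and Col6a3. Col1a2 and Lamb1 are shown beside them because their reads differed by less. Capitals mark matches on either strand to 4 motifs. The CCAAT box was searched as CCAAT or its reverse complement ATTGG, and the TATA box as TATAAA or its reverse complement TTTATA. The GC box was searched as GGGCGG or its reverse complement CCGCCC. A letter string found in sites bound by SMAD proteins was searched as CAGACA or its reverse complement TGTCTG. In the printed windows, 0 letters belong to more than 1 match. The windows lie at chr1:45311288-45311537 (plus strand), chr10:76726045-76726294 (minus), chr10:76623631-76623880 (minus), chr1:90843972-90844221 (minus), chr6:4505368-4505617 (plus) and chr12:31265043-31265292 (plus).
Col3a1: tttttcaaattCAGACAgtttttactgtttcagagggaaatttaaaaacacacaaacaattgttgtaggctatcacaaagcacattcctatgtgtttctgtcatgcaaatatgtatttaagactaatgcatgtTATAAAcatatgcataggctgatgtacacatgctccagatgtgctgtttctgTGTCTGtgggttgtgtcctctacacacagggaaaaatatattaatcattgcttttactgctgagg
Col6a1: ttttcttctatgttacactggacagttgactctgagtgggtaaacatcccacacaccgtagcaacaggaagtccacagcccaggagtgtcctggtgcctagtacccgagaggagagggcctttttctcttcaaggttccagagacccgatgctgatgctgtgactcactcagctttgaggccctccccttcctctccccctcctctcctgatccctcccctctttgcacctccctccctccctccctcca
Col6a2: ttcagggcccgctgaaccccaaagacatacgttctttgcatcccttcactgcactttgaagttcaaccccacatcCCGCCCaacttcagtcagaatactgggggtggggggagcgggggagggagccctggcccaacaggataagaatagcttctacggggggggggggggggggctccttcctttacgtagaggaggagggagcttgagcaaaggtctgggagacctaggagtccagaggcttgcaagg
Col6a3: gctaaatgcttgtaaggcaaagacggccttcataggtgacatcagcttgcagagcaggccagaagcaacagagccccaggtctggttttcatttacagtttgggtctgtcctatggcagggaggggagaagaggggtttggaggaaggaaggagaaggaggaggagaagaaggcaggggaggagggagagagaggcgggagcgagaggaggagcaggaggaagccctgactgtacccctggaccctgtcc
Col1a2: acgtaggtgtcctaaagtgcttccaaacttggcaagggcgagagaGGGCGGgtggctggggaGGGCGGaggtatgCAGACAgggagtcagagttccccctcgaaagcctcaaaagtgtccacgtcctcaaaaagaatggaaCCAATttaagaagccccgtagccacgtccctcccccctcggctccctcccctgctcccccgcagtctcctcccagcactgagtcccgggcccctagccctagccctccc
Lamb1: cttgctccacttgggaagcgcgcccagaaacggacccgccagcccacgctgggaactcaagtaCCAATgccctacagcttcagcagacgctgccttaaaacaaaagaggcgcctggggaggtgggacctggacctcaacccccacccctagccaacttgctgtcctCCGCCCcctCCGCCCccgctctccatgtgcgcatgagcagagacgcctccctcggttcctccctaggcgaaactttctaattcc

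The 3 printed type VI windows hold 1 match between them, the CCGCCC of Col6a2, and the Col3a1 window holds TATAAA and a pair of CAGACA matches. The window of Col6a4, not printed, holds 1 CCAAT and 2 GGGCGG. The Col1a2 window holds 1 CCAAT, 2 GGGCGG and 1 CAGACA, and the Lamb1 window 1 CCAAT and 2 GGGCGG. Col1a1 and Col5a2, which were also 2-fold lower, have no entry, so these counts leave them out. Over the 24 counted members with an entry, CCAAT was found in 0 of the 4 that were 2-fold lower and in 12 of the 20 that lay between, against 33.8% of 32817 windows of all genes. GGGCGG was found in 1 of the 4 and 16 of the 20, against 32.7% of all windows, and CAGACA in 1 and 6, against 17.1%. TATAAA was found in 1 of each group, against 12.4% of all windows. Each member has 1 window, at its outermost start, while the windows of all genes cover every distinct start. The share of G and C letters was 35.2% to 59.2% in the 4 and 43.6% to 83.6% in the 20. Its median over all windows was 52.4%, and the motif shares were not matched for it. A match describes these letters only and is not a site shown to be used.

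Type IV chains were lower by modest amounts, with 0 of the 4 counted past 2-fold and all 4 below 0. Their median log2 read ratio was -0.44. The alpha 1 and alpha 2 chains of the ubiquitous type IV network are encoded head to head, and the listed spans of Col4a1 and Col4a2 on chromosome 8 overlap by 22 bases on opposite strands. Col4a1 had 6451 reads in the KO host library and 10465 in the WT host library, with a log2 read ratio of -0.54 (-0.59 to -0.50). Col4a2 had 1711 and 2897 reads in the KO and WT host libraries, with a log2 read ratio of -0.60 (-0.69 to -0.52). These log2 read ratios differed by 0.06. Their ratio per kilobase was 3.68 in the KO host library (3.48 to 3.88) and 3.52 in the WT host library (3.38 to 3.67), intervals that overlap.

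The second head-to-head pair lies on the X chromosome, 1308 bases apart, and encodes the alpha 5 and alpha 6 chains, which form a network in a subset of basement membranes, among them those of skin and smooth muscle. Both were more abundant than Col4a1 per kilobase. Col4a5 had 14935 reads in the KO host library and 17906 in the WT host library, with a log2 read ratio of -0.10 (-0.14 to -0.07). Col4a6 had 11361 and 15991 reads in the KO and WT host libraries, with a log2 read ratio of -0.34 (-0.37 to -0.30). Col4a5 was at 2.34 times Col4a1 per kilobase in the KO host library and 1.73 times in the WT host library. Col4a4, a chain of specialised membranes such as that of the glomerulus, had 13 reads in the KO host library and was listed at 0 in the WT host library.

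Laminins are trimers of 1 alpha, 1 beta and 1 gamma chain. Of the 7 chains counted, 0 were past 2-fold, with a median log2 read ratio of -0.35. Lama3 passed the read minimum, with 177 reads in the WT host library, all of its reads. Being listed at 0 in the KO host library, it was left out of this count and median. The common beta 1 chain, Lamb1, was the most abundant and barely differed, with 17671 reads in the KO host library and 20032 in the WT host library. Its log2 read ratio was -0.02 (-0.05 to 0.01), a counting interval that includes 0, and it was 0.04 when scaled by the median read ratio of all genes. The common gamma 1 chain, Lamc1, had 6469 and 11438 reads in the KO and WT host libraries and was 1.59-fold lower (1.54 to 1.64). Beta 1 to gamma 1 stood at 3.60 per kilobase in the KO host library, against 2.31 in the WT host library.

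The alpha chains, which carry most of the binding to cell receptors, were scarce beside Lamb1. Lama5 had 1510 reads in the KO host library and 2145 in the WT host library, with a log2 read ratio of -0.35 (-0.45 to -0.25). Lama4, the alpha chain of vascular laminins, had 461 and 722 reads in the KO and WT host libraries, with a log2 read ratio of -0.49 (-0.66 to -0.32). Per kilobase, Lama5 and Lama4 were at 0.0434 and 0.0250 of Lamb1 in the KO host library and at 0.0544 and 0.0345 of it in the WT host library. Lamb2, the beta 2 chain, had 1535 reads in the KO host library and 2314 in the WT host library (log2 read ratio -0.44).

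Lama3 and Lamb3 encode the alpha and beta chains of a laminin of epithelial anchoring sites. Lama3 was listed at 0 in the KO host library and had 177 reads in the WT host library. Lamb3 had 524 and 706 reads in the KO and WT host libraries, a log2 read ratio of -0.27 (-0.44 to -0.11). The span of Lamb3 shares 42442 bases with Hsd11b1 on the opposite strand, which had 1 read in the KO host library and 73 in the WT host library.

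Among the proteins that link basement membrane networks, Hspg2 (perlecan) and Agrn (agrin) went in opposite directions. Hspg2 had 27092 reads in the KO host library and 38170 in the WT host library, a log2 read ratio of -0.34 (-0.36 to -0.32). Agrn had 3993 reads in the KO host library and 3073 in the WT host library, 1.45-fold higher (1.38 to 1.52). Nid1, which joins laminin to type IV collagen, was low, with 132 and 210 reads in the KO and WT host libraries and a log2 read ratio of -0.51 (-0.84 to -0.19).

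Fn1 (fibronectin), the fibrous glycoprotein on which cells first lay down collagen, had the most reads of all members. It had 95174 reads in the KO host library and 123660 in the WT host library, a log2 read ratio of -0.22 (-0.23 to -0.21). Fibronectin alone made up 28.8% of member reads in the KO host library and 25.8% in the WT host library. Without Fn1 and Col18a1, the 39 other members summed to 6822 RPM in the KO host library against 10360 RPM in the WT host library, a ratio of 0.658.

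Of the remaining collagens, 0 of the 6 counted were past 2-fold. Col18a1, a basement membrane collagen whose end fragment is endostatin, was the most abundant member per kilobase in both libraries. It had 76322 reads in the KO host library and 85900 in the WT host library, a log2 read ratio of -0.01 (-0.03 to 0.0005), which became 0.05 when scaled by the median read ratio of all genes. Its span shares 8825 bases with Slc19a1 on the opposite strand, which had 616 reads in the KO host library and 1091 in the WT host library. Col8a1, a short-chain network collagen of vessel walls, had 9192 and 11694 reads in the KO and WT host libraries (log2 read ratio -0.19). Col16a1 and Col12a1, which sit on the surface of fibrils, had log2 read ratios of -0.38 and -0.23.

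Col7a1, the anchoring fibril collagen that fastens epithelial basement membranes to the tissue beneath, was higher in the KO host library, short of 2-fold. It had 5998 reads there, against 4148 reads in the WT host library, 1.61-fold higher (1.55 to 1.68). Col17a1, the collagen of hemidesmosomes, was at 167 and 173 reads in the KO and WT host libraries, with a log2 read ratio of 0.11 (-0.21 to 0.42). The members above 0 on the log2 read scale included Agrn, Col2a1, Col6a4, Col7a1 and Col17a1. Of the rarest collagens, Col10a1 and Col20a1 were listed at 0 in the KO host library and had 71 and 76 reads in the WT host library. The whole span of Col10a1, 7105 bases, is shared with Nt5dc1 on the opposite strand. Nt5dc1 had 186 reads in the KO host library and 664 in the WT host library. Col22a1 and Col26a1 had 24 and 23 reads in the KO host library and were listed at 0 in the WT host library. Col23a1 had 2 reads in the KO host library and 43 in the WT host library. A listed 0 can be a failed estimate in this table, since some genes that every cell uses are also at 0.

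Fewer members differed on the deposited scale. There the FPKM is per kilobase of genomic span, introns included, so that a gene with a long span has a lower FPKM for the same reads, and where the FPKM is under 1, as for Col6a3 in the KO host library and Col5a2 in both, the added 1 outweighs it. Of the 21 members with a mean deposited log2 value of 1 or more, 4 were lower by 1 or more (Col1a1, Col3a1, Col6a1 and Col6a2). Among all 6057 genes with such a mean, 2.64% were lower by as much. None of the 21 was higher by 1 or more, against 2.31% of those 6057 genes. Col5a2, with a read ratio among the lowest of the members, differed by -0.05 on the deposited scale.

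**Figure D4:**
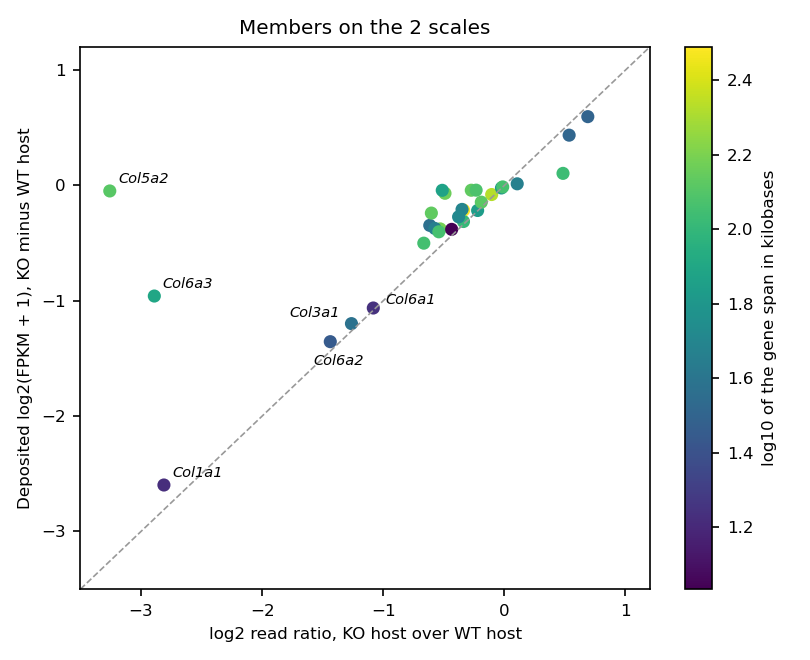
Deposited log2(FPKM + 1) difference against log2 read ratio for the counted members reported by name with a log2 read ratio under 2, both as KO host minus or over WT host, coloured by the log10 of the gene span in kilobases. The dashed line marks equal values. Col1a1 lies near it, with -2.60 on the deposited scale and -2.81 by reads, and Col6a3 lies above it, with -0.96 on the deposited scale and -2.89 by reads. Col2a1 is beyond the axes and is not drawn.

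Other genes that build collagen fibres are described beside the members, against the median of -0.06 over all genes and the 11.3% lower and 8.4% higher by 2-fold. Of 16 counted genes for folding and hydroxylation of chains, 2 were 2-fold lower in the KO host library and 1 was 2-fold higher, with a median log2 read ratio of -0.23. Serpinh1, the collagen chaperone HSP47, had 169 reads in the KO host library and 874 in the WT host library, 4.64-fold lower. P3h3, of the prolyl 3-hydroxylase family, was 4.25-fold lower. P4ha2, a prolyl 4-hydroxylase subunit, had 97 and 36 reads in the KO and WT host libraries. P4ha1, the subunit with more reads, was at 0.46 and P4hb, the shared subunit, at -0.31 on the log2 read scale.

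Of 11 counted genes for propeptide cleavage and crosslinking, 2 were 2-fold lower and 0 were higher, with a median of -0.33. Lox, the oxidase that starts crosslinks, had 15 reads in the KO host library and 217 in the WT host library. Adamts2, which removes the amino-terminal propeptide, had 201 and 1133 reads in the KO and WT host libraries, 5.06-fold lower. Pcolce, an enhancer of carboxy-terminal cleavage, was at -0.96, the protease Bmp1 at 0.35 and Loxl3 at 0.25.

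Partners of collagen fibrils differed more, with 5 of 10 counted genes 2-fold lower and 0 higher, and a median of -0.92. These were Eln, Postn, Dcn, Bgn and Emilin1. Eln (elastin) had 25 reads in the KO host library and 639 in the WT host library. Postn (periostin) was 4.45-fold lower, as was Dcn (decorin), a proteoglycan that coats fibrils, with 158 and 784 reads in the KO and WT host libraries. Bgn (biglycan), a relative of decorin, was 3.10-fold lower and Emilin1, an elastic fibre glycoprotein, 2.30-fold lower. Sparc, the partner with the most reads, was at -0.16, and Fmod (fibromodulin) was listed at 0 in the KO host library with 38 reads in the WT host library. The 3 counted partners above 0 were Tnc at 0.43, Tnxb at 0.74 and Fbn1 at 0.04.

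Receptors for collagen, laminin and fibronectin were centred near 0. Of 18 counted, 1 was 2-fold lower and 2 were 2-fold higher, with a median of 0.05. Itga6, the laminin-binding integrin alpha 6 chain, had 14471 reads in the KO host library and 7567 in the WT host library, 2.13-fold higher (2.07 to 2.19). Itga7, another laminin-binding alpha chain, had 480 and 166 reads in the KO and WT host libraries, 3.23-fold higher. Itgb3, a beta chain of vitronectin and fibronectin receptors, was the 1 gene lower, with 33 reads in the KO host library and 96 in the WT host library. Itgb1 was at 0.03 and Itgav at -0.17 on the log2 read scale. Other laminin receptors were lower, short of 2-fold, with Itgb4 at -0.95 and Dag1 at -0.60. In direction, 8 of the 18 were below 0 and 10 above.

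**Figure D5:**
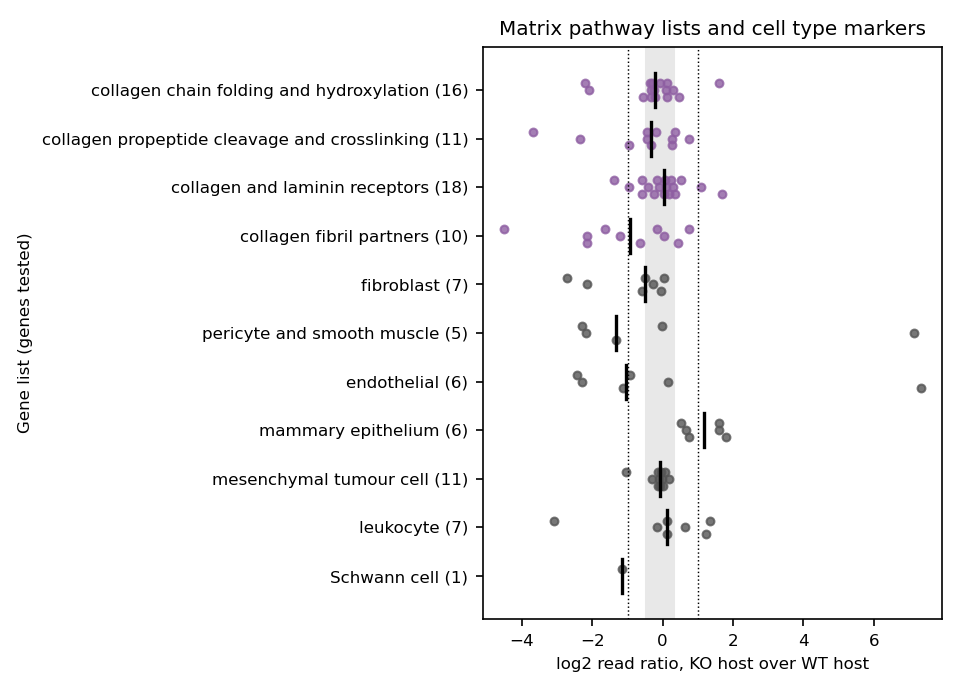
Log2 read ratio, KO host over WT host, of each counted gene in the matrix pathway lists (purple) and cell type marker lists (grey), with the list median as a black bar, dotted lines at 2-fold and the middle of all genes as a grey band. The fibril partner and pericyte lists have medians of -0.92 and -1.33, and the mammary epithelium list has a median of 1.17.

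Markers of other cells that pass the sort did not go one way, and the pericyte and smooth muscle list had the lowest median, -1.33. The counts in each marker list stand beside the same shares over all genes, 11.3% lower and 8.4% higher by 2-fold. Its 8 listed genes of 14 summed to 102 RPM in the KO host library and 428 RPM in the WT host library. Of its 5 counted genes, Pdgfrb, Notch3 and Acta2 were 2-fold lower, Tagln was at -0.03, and Gja4 was higher with 127 reads and 1 read in the KO and WT host libraries. Pdgfrb, the receptor that marks pericytes and many fibroblasts, had 1691 reads in the KO host library and 9206 in the WT host library, 4.88-fold lower. Notch3 was 4.53-fold lower, and Cspg4 was listed at 0 in the KO host library with 190 reads in the WT host library. Below the read minimum, Abcc9 went the other way, with 56 reads in the KO host library and 1 read in the WT host library. Mcam, also below it, had 18 and 44 reads in the KO and WT host libraries.

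The fibroblast list summed to 1080 RPM in the KO host library and 1379 RPM in the WT host library, over 11 of 15 genes. Ogn and Gsn, its genes with the most reads, were at -0.28 and -0.49 on the log2 read scale, short of 2-fold. Of its 7 counted genes 2 were 2-fold lower, Dpt and Dcn, which is also among the fibril partners. Pdgfra was at -0.05 and Cd34 at 0.04. Below the read minimum, Fap had 1 and 91 reads in the KO and WT host libraries, Thy1 3 and 45, and Pi16 1 and 38. Fbln1, also below it, had 5 and 6 reads. The endothelial list summed to 32.5 and 56.0 RPM in the KO and WT host libraries over 7 of 14 genes. Of its 6 counted genes 3 were 2-fold lower, Plvap at -2.43, Eng at -2.29 and Ecscr at -1.14. Flt1 was at -0.94, Pecam1 was at 0.15, and Cdh5 was higher with 146 reads and 1 read in the KO and WT host libraries. Eng, Ecscr, Pecam1 and Cdh5 each had 100 to 300 reads over both libraries. In that range 55.7% of genes above 0 in each library differed by 2-fold or more. The part of these cells in the lower collagen reads was not tested.

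The other marker lists went differently. Mesenchymal tumour cell genes, 11 of 11 listed, summed to 4066 RPM in the KO host library and 4346 RPM in the WT host library. Their median was -0.08, with Vim at -0.13 and Cdh2 at 0.06, and only Twist2 was past 2-fold. Mammary epithelium genes, 7 of 10 listed, summed to 333 and 208 RPM in the KO and WT host libraries. Of these, 3 of 6 counted genes were 2-fold higher, Krt8 was at 0.51, Krt18 at 0.65, and Elf5 was listed at 0 in the KO host library. Leukocyte genes, 11 of 14 listed, summed to 32.3 and 31.1 RPM in the KO and WT host libraries. Csf1r was at 0.14 and Adgre1 at 0.12, and of 7 counted genes 1 was 2-fold lower and 2 were higher. The lower gene was Itgam, with 25 and 237 reads in the KO and WT host libraries, and Cd68 and Fcer1g were at 1.24 and 1.33. Below the read minimum, Cd8a had 53 and 7 reads and Ms4a1 43 and 2 in the KO and WT host libraries. Tyrobp, with 23 and 21, and S100a8, with 15 and 23, were also below it. Schwann cell genes, 4 of 5 listed, summed to 37.1 RPM in the KO host library and 74.7 RPM in the WT host library. Most of that was Pmp22, the 1 gene of the list counted, which was 2.25-fold lower. The 1 adipocyte gene listed of 4, Plin1, had 13 reads in the KO host library and 3 in the WT host library. What these lists contribute to the collagen values was not tested.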

How the data were processed

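The authors deposited 1 table of log2 values, which the table's name gives as log2 of FPKM + 1 (fragments per kilobase per 1000000 counted), with 1 column per library. Per the submitters' processing notes, the tools were STAR 2.7.8a and Partek and the build was mm39. The annotation release is not given in the sources used here, nor is strand handling. FPKM multiplied by the listed gene length in kilobases summed to 1000000 per library, and that length is the genomic span in 100% of genes.

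Reads were recovered because low values fall on whole multiples of 1 step. Among values under 1000 reads, 83.4% (KO host library) and 84.9% (WT host library) were whole within 0.1 read, and printed read numbers are rounded to whole reads. For the members, 34 of 41 were whole within 0.1 read or the rounding of the table. No gene had under 10 reads over both libraries. Recovery was tested on simulated data.

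A gene was counted with 100 reads or more over both libraries and a value above 0 in each, and called at 2-fold. Intervals are exact conditional binomial (Clopper-Pearson) at 95%, and they cover counting error only, since copies made by PCR were not told apart. With 1 library per group no test was made, and the planned design used the read ratio as the main scale because the span hides differences of long genes. Transcript lengths are those of the longest protein-coding transcript in GENCODE M21, used for lengths only. Promoter windows are from RefSeq (GRCm38.p6), with 30 of 41 members matched by symbol. Python 3.11.15, numpy 2.4.6, pandas 2.3.3 and scipy 1.17.1 were used. Every member with 100 reads or more could be named, and 1 that entered the counts and medians is not reported here. Of each pathway list the 3 largest ratios and the 2 with most reads were named, and of each marker list the 2 counted genes with most reads and markers listed at 0. Other listed genes were named after their values were seen. The members and lists were chosen with earlier results of these data known. Alternatives were other added constants, scalings, read minimums and fold rules, and the use of whole reads only.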

Additional observations from a re-analysis of the deposited data

How the results depend on the processing

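No paired analysis was possible because there was 1 library per group, and for the same reason none could be left out. The count of members 2-fold lower (6) was between 4 and 7 with other scalings, read minimums and whole-read rules, and the count higher (1, Col2a1) was 1, or 0 with 500 reads or more. At 1.5-fold, 9 were lower and 3 higher. The FPKM alternatives changed the set of genes as well as the constant, since a mean deposited log2 value of 1 or more left 21 of the 32 members, 3 of them type IV and 2 type VI chains. In these 21, 4 were lower with 1 or 0.1 added and 2 with 5 added, and 0 were higher in each. With 0.1 added Col2a1 was at 1.39 and Col6a3 at -2.34, but neither was among the 21. No median of the member groups changed sign, and the main medians were -0.36 for all members, -0.62 fibrillar, -1.26 type VI, -0.44 type IV, -0.35 laminins and -0.21 the remaining members. Over the members left on the deposited scale, the fibrillar, type VI and type IV medians were -0.38, -1.21 and -0.21. With 0.1 added the type IV median was -0.32 without Col4a2, and Col4a1, Col4a2 and Col4a6 themselves were at -0.52, -0.52 and -0.32. With 5 added the 6 medians, in the order above, were -0.16, -0.18, -1.05, -0.088, -0.17 and -0.075. Scaling by the median read ratio adds 0.06 to each value and gave -0.30 for all members, -1.20 for type VI and -0.38 for type IV. With whole reads within 0.1 only, the type VI median was -1.44, over 3 chains. As a ratio of summed reads the groups were at -1.26 (fibrillar), -1.21 (type VI), -0.30 (type IV) and -0.25 (laminins), so the fibrillar value depends on whether abundant chains count for more. Of 160 values of single members under alternatives, 2 changed sign: Lamb1 and Col18a1 were at 0.04 and 0.05 when scaled by the median read ratio. The cleavage and crosslinking list was at 0.016 on the deposited scale, where 6 of its genes were counted, and the Schwann cell list at 0.85 over 4 genes with 10 reads or more. The requirement of whole reads within the rounding of the table was added after seeing the data and gave 5 lower and 1 higher. Depth limits Col5a2 and Col2a1 most, each with under 300 reads over both libraries.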
